A study of Rosa rugosa with 9 samples.

Results

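A set of 7 genes of the ornamental rose Rosa rugosa 'Zizhi' matched best, by protein sequence, transporters and an enzyme known from arbuscular mycorrhizal roots. They are a pair of low affinity inorganic phosphate transporter 4 genes (PT4, Rru01G053270 and Rru01G053280), low affinity inorganic phosphate transporter 8 (PT8, Rru01G047790), the half-size ABC transporters STR (Rru07G001290) and STR2 (Rru07G039500), the glycerol-3-phosphate acyltransferase RAM2 (Rru02G075040) and ammonium transporter 2 member 5 (AMT2-5, Rru06G049920). These 7 of the 47983 genes in the deposited table were picked by identifier, after their levels in these libraries had been seen to be near 0 in control roots and higher in some roots given humic acid. Their differences from control are therefore described here and not tested. The plants grew in pots of sand in a greenhouse and received 200 ml of Hoagland solution each week for 37 weeks. For CK plants, the controls, the solution held 0.092 g of ammonium dihydrogen phosphate without humic acid. For HA1 plants it held 0.0552 g of that salt, 60% of the control phosphorus, with 0.0368 g of humic acid. For HA2 plants it held 0.0368 g of the salt, 40% of the control phosphorus, with 0.0552 g of humic acid. In the design humic acid was counted as the source of the remaining phosphorus, 40% in HA1 and 60% in HA2. Each group had 3 libraries of polyadenylated RNA from tender roots. In both humic acid groups less of the salt, which holds both ammonium and phosphate, came together with more humic acid. The effects of less phosphate, less ammonium from this salt and more humic acid cannot be told apart. The labels record no inoculation with a fungus, and colonisation was not analysed here.

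In arbuscular mycorrhiza a soil fungus grows into root cortex cells and forms branched arbuscules, each wrapped by a plant membrane. Across that membrane the plant takes up phosphate and ammonium released by the fungus, and in return exports lipid and sugar. In Medicago truncatula, Lotus japonicus and Petunia hybrida, the species of the best matches, genes of these kinds are known from cells that hold arbuscules, and well-supplied phosphate is known to lower colonisation. The names rest on sequence matches alone. The second annotation in the deposited table, the best match in rose or other plants, gave other names: inorganic phosphate transporter 1-11-like for both PT4 genes, probable inorganic phosphate transporter 1-2 for PT8, ABC transporter G family member 17-like for STR and STR2, glycerol-3-phosphate 2-O-acyltransferase 6-like for RAM2 and ammonium transporter 3 member 1-like for AMT2-5.

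Total counts ranged from 33847262 to 42988605 per library, so that 3 counts correspond to 0.0637 to 0.0903 CPM after TMM scaling. CPM are counts scaled to a common library size, and TMM, which corrects library sizes, is used for every CPM value here. The 10 root markers, Casparian strip membrane proteins and the root patterning regulators SHORT-ROOT and SCARECROW, were found in every library, with a summed level of 70.1 to 125 CPM in CK, 79 to 108 CPM in HA1 and 90.6 to 161 CPM in HA2. The 59 green tissue markers summed to 123 to 235 CPM in CK, 88.4 to 120 CPM in HA1 and 55.2 to 152 CPM in HA2, and 12 to 22 of them were at 0 in a library. On the first principal component of all genes tested, HA2 replicate 3 lay at -45.8, inside the CK range of -131 to -42.3, while the other humic acid libraries lay at 39.7 to 70.4. Its values on components 2 and 3, -79.6 and -67.1, were the lowest of the 9. The labels do not tie the libraries to single plants, so the spread between replicates may be in part technical.

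All 3 phosphate transporters were near 0 in CK roots and reached their highest levels in HA1 replicate 1 or HA2 replicate 3. PT4 Rru01G053270, of the type that takes up fungal phosphate in Medicago, had 0.149, 0 and 0 CPM in CK replicates 1 to 3, 34.2, 7.85 and 0.344 CPM in HA1 and 18.7, 0.666 and 18.6 CPM in HA2. Every HA1 and every HA2 library lay above every CK library, but within HA1 the highest library had 99.4 times the level of the lowest, and within HA2 28.1 times. Its mean was 14.1 ± 17.8 CPM in HA1 and 12.7 ± 10.4 CPM in HA2, against 0.0495 ± 0.0858 CPM in CK (SD, n = 3 each), so each SD was close to or above its mean. The pooled level was 283 times that of CK in HA1, with a 95% exact interval of 137 to 704 from 1773 counts in HA1 and 7 in CK. In HA2 it was 229 times that of CK (111 to 571). These intervals, like those below, cover counting error only and not the spread between roots.

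PT4 Rru01G053280, whose best match is the Lotus gene, had 0.0637, 0 and 0 CPM in CK, 10.5, 3.04 and 0.23 CPM in HA1 and 7.28, 0.25 and 15.8 CPM in HA2. Again no humic acid library overlapped the CK range, and HA1 replicate 3 and HA2 replicate 2 were the low ones. The pooled HA1 level was 211 times that of CK (72 to 1030), on only 3 counts in CK, and the pooled HA2 level 339 times (116 to 1650). The 2 PT4 genes have identifiers that follow each other and varied together over the libraries, with r = 0.99 over 9 libraries. Their balance was not the same in every library. Of the reads counted for the pair, Rru01G053270 held 76.6% (74.6 to 78.4, exact 95% interval) in HA1 replicate 1, 72.1% (67.2 to 76.7) in HA1 replicate 2 and 72% (68.9 to 74.9) in HA2 replicate 1. In HA2 replicate 3 it held 54.1% (51.5 to 56.7), below all 3 of those intervals. How reads shared between near-identical copies were counted is not given in the sources used here, so the split within the pair is uncertain.

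PT8, in Medicago another phosphate transporter known from mycorrhizal roots, had counts in 2 of the 3 CK libraries. It had 0.255, 0 and 0.141 CPM in CK, 5.11, 1.35 and 0.172 CPM in HA1 and 3.36, 0.277 and 7.94 CPM in HA2. HA1 replicate 3, with 6 counts, lay inside the CK range of 0 to 12 counts, so HA1 and CK overlapped, and all 3 HA2 libraries lay above CK by CPM, HA2 replicate 2 only just. The pooled level was 17.1 times that of CK in HA1 (10.6 to 29.2) and 28.1 times in HA2 (17.6 to 47.9).

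STR and STR2 are half-size transporters that in Medicago pair up on the membrane around the arbuscule, where they are needed for arbuscules to grow and are held to export lipid. STR had 0.255, 0 and 0 CPM in CK, 8.9, 2.92 and 0.144 CPM in HA1 and 3.8, 0.25 and 23.1 CPM in HA2. HA1 replicate 3, at 5 counts, and HA2 replicate 2, at 9 counts, lay below the 12 counts of CK replicate 1, so both humic acid groups overlapped CK. STR2 had 0.0849, 0 and 0 CPM in CK, 3.36, 1.23 and 0.0574 CPM in HA1 and 2.03, 0 and 8.7 CPM in HA2. It was the only one of the 7 genes with no count in a humic acid library, HA2 replicate 2, and it too overlapped CK in both groups. The pooled level of STR was 45.8 times that of CK in HA1 (26 to 89.2) and 102 times in HA2 (58 to 197). For STR2 the ratios were 53 (20.4 to 197) and 119 (46.3 to 441). STR2 followed STR closely, with FPKM (fragments scaled by gene length and library size, as deposited) at 0.418, 0.467, 0.59 and 0.417 of those of STR in HA1 replicates 1 and 2 and HA2 replicates 1 and 3.

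RAM2 makes monoacylglycerols, and in mycorrhizal roots it is known as a step in the lipid supply to the fungus. It had 0.0425, 0 and 0 CPM in CK, 2.08, 0.421 and 0.0861 CPM in HA1 and 0.957, 0.166 and 5.87 CPM in HA2. It had the lowest CK level of the 7 per length too, a mean of 0.00664 FPKM, and no humic acid library overlapped CK, although HA1 replicate 3 had only 3 counts. The pooled level was 60.3 times that of CK in HA1 (16.3 to 504) and 157 times in HA2 (43 to 1300).

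AMT2-5, an ammonium transporter whose Medicago counterpart is known from mycorrhizal roots, had the highest CK level of the 7 per length, a mean of 0.158 FPKM. It had 0.425, 0.0567 and 0.282 CPM in CK, 7.37, 2.95 and 0.23 CPM in HA1 and 2.96, 0.388 and 15.6 CPM in HA2. HA1 replicate 3 and HA2 replicate 2 lay inside the CK range. The pooled level was 14.1 times that of CK in HA1 (9.93 to 20.6) and 25 times in HA2 (17.7 to 36.3), the smallest ratio of the 7 in each group.

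**Figure D1:**
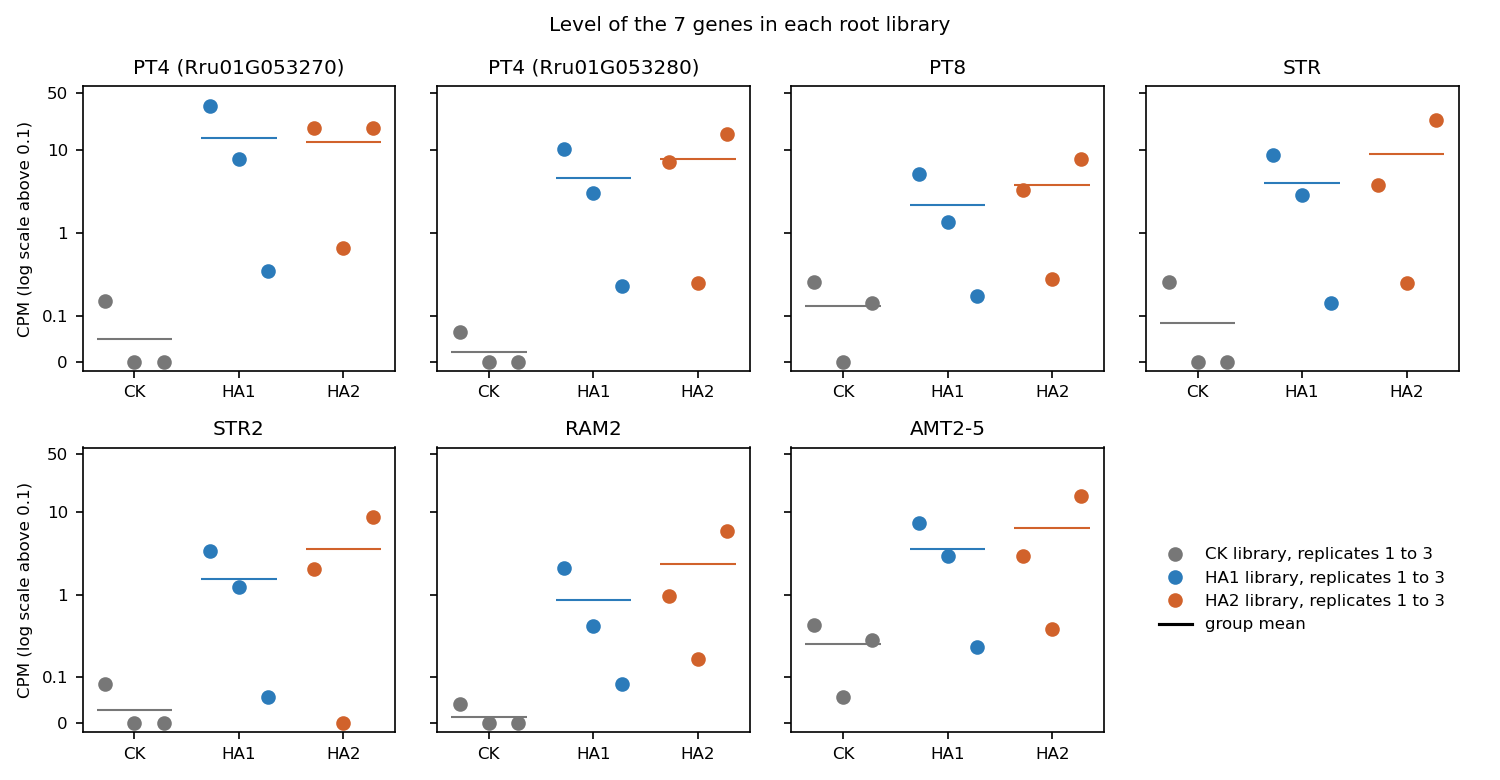
Level of each of the 7 genes in the 9 root libraries, in CPM on an axis that is logarithmic above 0.1 and linear below, with points for replicates 1 to 3 from left to right and bars for group means. In every panel HA1 replicate 3 and HA2 replicate 2 are the lowest of the humic acid libraries, least clearly for RAM2, with 0.166 CPM in HA2 replicate 2 beside 0.421 CPM in HA1 replicate 2, and 6 of the 7 genes are highest in HA2 replicate 3.

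The 7 genes split the humic acid libraries in the same way. Within HA1 all 7 were highest in replicate 1 and lowest in replicate 3, all 7 were lowest in replicate 2 within HA2, and 6 were highest in HA2 replicate 3. Their summed level was 1.27, 0.0567 and 0.423 CPM in CK, 71.5, 19.8 and 1.26 CPM in HA1 and 39.1, 2 and 95.7 CPM in HA2. HA1 replicate 3 thus held about as much as CK replicate 1, and HA1 replicate 1 many times more than either. Every HA1 library lay above every CK library in 3 of the 7 genes, which over all genes tested held for 22.7%. Every HA2 library lay above every CK library in 4 of the 7, against 11% of all genes. The genes were chosen on these same contrasts, so the shares are given as a description. In these bulk samples, fewer cells that express the genes and less RNA per cell cannot be told apart.

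Set against the CK libraries pooled, the 2 low libraries held more of these transcripts in sum, though not of each gene. CK replicate 1 alone held 1.27 CPM in sum, against 1.26 CPM in HA1 replicate 3 and 2 CPM in HA2 replicate 2. The pool also takes in CK replicates 2 and 3, at 0.0567 and 0.423 CPM. The intervals leave out this spread, and the ratios are a description and not a test. For all 7 genes together, HA1 replicate 3 had 44 counts and CK 80 in its 3 libraries, a CPM ratio of 1.97 (1.33 to 2.88). HA2 replicate 2 had 72 counts, a ratio of 3.12 (2.24 to 4.34). The ratios differed between genes. PT4 Rru01G053270 was at 6.15 times (2.23 to 18.4) the CK level in HA1 replicate 3 and at 11.9 times (4.96 to 32.6) in HA2 replicate 2. For AMT2-5 the ratios were 0.844 (0.337 to 1.86) and 1.43 (0.707 to 2.73), and for PT8 1.2 (0.388 to 3.14) and 1.92 (0.794 to 4.4), with intervals that include 1. One library also carried much of each group's ratio to CK. Without HA2 replicate 3 the HA2 ratios to CK were 6.04 for AMT2-5, 12.4 for PT8, 20.7 for STR, 31 for STR2, 34.5 for RAM2, 153 for PT4 Rru01G053280 and 169 for Rru01G053270. Without HA1 replicate 1 the HA1 ratios were 5.2 for PT8, 5.72 for AMT2-5, 15.6 for STR and for RAM2, 19.7 for STR2, 66.7 for Rru01G053280 and 71.6 for Rru01G053270. The CK side rested on few counts as well. Without CK replicate 1 both PT4 genes, STR, STR2 and RAM2 had no count in CK, and set against 3 counts over the other CK libraries their HA1 ratios were at least 411 for Rru01G053270, 132 for Rru01G053280, 114 for STR, 44 for STR2 and 25 for RAM2. The HA2 ratios were then at least 333, 211, 253, 99.2 and 65.1 for the same genes. PT8 and AMT2-5 were then at 31.9 (14.5 to 87.6) and 21.3 (12.6 to 39.3) times the CK level in HA1, and at 52.5 (23.9 to 144) and 37.7 (22.4 to 69.4) times in HA2. Without CK replicate 3 the HA1 ratios of those 5 genes were 186, 139, 30.2, 35 and 39.8, and the HA2 ratios 151, 223, 67.1, 78.8 and 103. Library depth followed these levels in part. CK replicate 1, HA1 replicate 1 and HA2 replicate 3 had 39806552, 42895196 and 42988605 counts in all. Each was the deepest library of its group and had the group's highest summed level. The low libraries, HA1 replicate 3 with 38933607 and HA2 replicate 2 with 40350494, were deeper than HA1 replicate 2 with 36967564 and HA2 replicate 1 with 36669889. Whether depth bears on the levels was not tested.

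Per length, the balance among the 7 genes was also different in HA2 replicate 3 from that in HA1 replicates 1 and 2 and HA2 replicate 1. The FPKM of PT4 Rru01G053270 was 6.24, 4.38 and 7.99 times that of STR in HA1 replicates 1 and 2 and HA2 replicate 1, and 1.31 times in HA2 replicate 3. That of AMT2-5 was 1.29, 1.58, 1.21 and 1.05 times that of STR in the same libraries, and that of RAM2 0.382, 0.235, 0.405 and 0.418 times. The other phosphate transporters were also lowest relative to STR in HA2 replicate 3. In the same order of libraries, PT4 Rru01G053280 was at 1.88, 1.67, 3.06 and 1.09 times STR, and PT8 at 0.775, 0.625, 1.19 and 0.464 times. PT4 Rru01G053270 was lower relative to the lipid and ammonium genes in HA2 replicate 3, the library that also stood apart over all genes. Whether that library's other differences bear on this was not tested.

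Within their families the mycorrhiza-type genes were a small part of root expression in CK and a larger one in 4 humic acid libraries. The PT4 pair and PT8 made up 0.185%, 0% and 0.0695% of the summed FPKM of the 10 phosphate transporters in CK libraries, 23.9%, 5.26% and 0.214% in HA1 libraries and 7.23%, 0.233% and 14.8% in HA2 libraries. The 2 ABC transporters held 0.0852%, 0% and 0% of the G family in CK libraries, 4.46%, 1.33% and 0.0399% in HA1 libraries and 1.37%, 0.046% and 7.67% in HA2 libraries. AMT2-5 held 3.04% of ammonium transporter FPKM in HA1 replicate 1 and 3.91% in HA2 replicate 3, and at most 0.193% in CK. RAM2 held 1.12% and 2.41% of the glycerol-3-phosphate acyltransferases in those 2 libraries, and at most 0.0155% in CK. In HA1 replicate 2 and HA2 replicate 1 the shares were below 1%, at 0.843% and 0.939% for AMT2-5 and 0.195% and 0.444% for RAM2. The summed FPKM of the rest of the phosphate transporter family was 148, 102 and 116 in CK replicates 1 to 3. In those of HA1 it was 90.5, 111 and 161, and in those of HA2 199, 250 and 129. It was highest in HA2 replicate 2, where the PT4 pair was low, and next highest in HA2 replicate 1, where the pair was high. Of the 7 genes in this rest of the family 4 could be tested. By edgeR's quasi-likelihood test 0 passed in either comparison with CK. That test called 21.2% of all genes in HA1 and 0.00396% in HA2. At an unadjusted p under 0.05, 0 of the 4 passed in HA1 and 1 in HA2, where 38.4% and 20.7% of all genes did, and DESeq2 called 0.

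**Figure D2:**
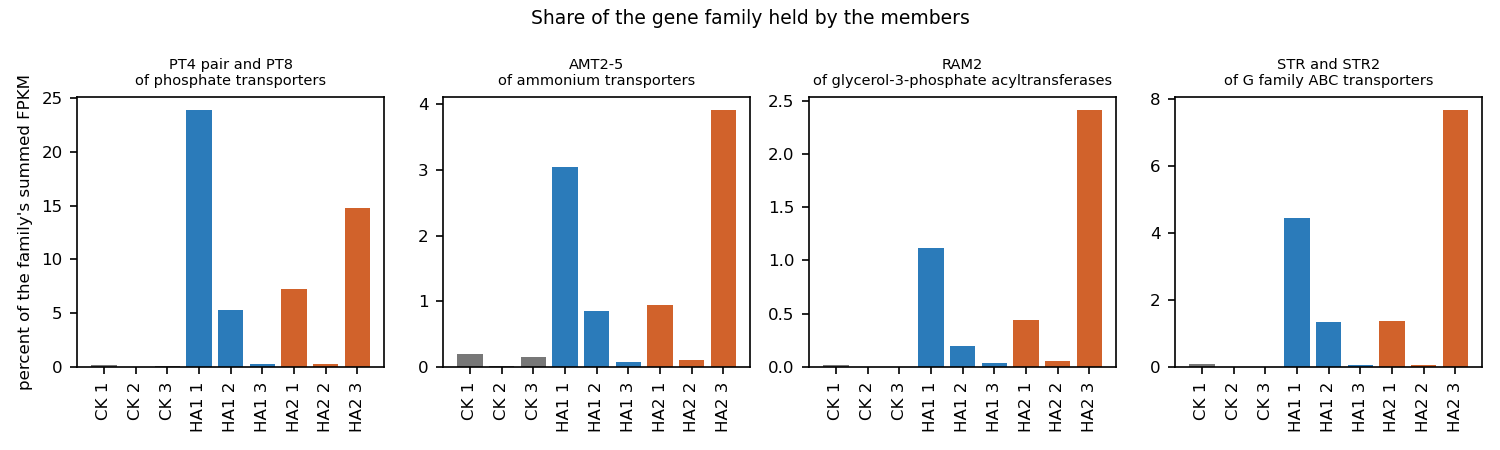
Share of each gene family's summed FPKM held by the mycorrhiza-type genes, in percent, for CK, HA1 and HA2 replicates 1 to 3, with axes that differ between panels. The PT4 pair and PT8 reach 23.9% of phosphate transporter FPKM in HA1 replicate 1 and 14.8% in HA2 replicate 3, and stay at or below 0.233% in all CK libraries, HA1 replicate 3 and HA2 replicate 2.

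The genes were chosen on their levels in humic acid roots against CK, and not on HA2 against HA1, so the direct comparison was tested. The levels in those same HA1 and HA2 libraries had been seen, so the test is not fully independent of the choice. All 7 passed the filter on low counts, through their counts in humic acid libraries. With p adjusted by Benjamini-Hochberg over 25260 genes in edgeR's quasi-likelihood test, 0 of the 7 differed, against a background of 0% of all genes tested. At an unadjusted p under 0.05, 4069 of all genes (16.1%) and 0 of the 7 passed, and DESeq2 called 947 genes (4.26% of those with an adjusted p) and 0 of the 7. Means were higher in HA2 than in HA1 for 6 genes. The largest fitted difference was that of RAM2, a log2 fold change of 1.42 ± 1.24 (SE, adjusted p = 0.596), and the smallest that of PT4 Rru01G053270, -0.16 ± 1.34 (adjusted p = 0.965). STR and STR2 lay at 1.18 ± 1.48 (adjusted p = 0.727) and 1.20 ± 1.49 (adjusted p = 0.724), PT8 at 0.80 ± 1.22 (0.780), AMT2-5 at 0.84 ± 1.24 (0.770) and PT4 Rru01G053280 at 0.76 ± 1.29 (0.804). With standard errors over 1 on the log2 scale, differences of 2-fold in either direction lay within 2 SE of all 7 values. For the 6 genes with a higher HA2 mean, the direction rested on HA2 replicate 3. Without that library all 7 log2 fold changes were negative, from -1.08 for AMT2-5 to -0.29 for Rru01G053280. PT4 Rru01G053270, negative with all libraries, was instead positive without HA1 replicate 1 (1.63) or without HA2 replicate 2 (0.40). The authors' deposited table gives 6 of the 7 genes an FDR of 0.749 to 0.979 in this comparison and none for RAM2, and no value for any of the 7 in the comparisons with CK.

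The likeness of the 7 profiles extended to other genes. Pairs among the 7 had r = 0.93 to 0.99 over log2 CPM in the 9 libraries, and 57 of 25253 other genes tested had r over 0.95 with their mean profile, where the median gene had 0.007. The 9 points share the library split described above, and the values are descriptive. The 10 most alike genes were Germin-like protein 9-3 (Rru05G040020, r = 0.995), of a family of cell wall proteins, the senescence-specific cysteine protease SAG39 (Rru02G042110, 0.994), Cucumber peeling cupredoxin (Rru02G003580, 0.993), Subtilisin-like protease 3 (Rru07G020650, 0.993), Umecyanin (Rru02G003520, 0.991), Serine carboxypeptidase 1 (Rru02G059650, 0.989), GDSL esterase/lipase At5g55050 (Rru02G012720, 0.988), Vacuolar-processing enzyme (Rru07G030270, 0.987), a LysM domain-containing protein (Rru02G068770, 0.987) and an umecyanin-like protein (Rru02G003630, 0.986). They thus include 3 blue copper proteins, of the umecyanin and cupredoxin kind, and 4 proteases or peptidases. Germin-like protein 9-3 had 0.17, 0 and 0 CPM in CK, 7.92, 1.5 and 0.172 CPM in HA1 and 2.81, 0.222 and 10.8 CPM in HA2. Subtilisin-like protease 3 had 0.234, 0 and 0 CPM in CK, 14.7, 5.18 and 0.258 CPM in HA1 and 10.3, 0.444 and 28.4 CPM in HA2. Both were highest in HA2 replicate 3, as 6 of the 7 genes were, and low in HA1 replicate 3 and HA2 replicate 2, as all 7 were.

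Further copies of the same gene types shared the pattern, chosen here after their values were seen. Of 172 tested genes on 10 lists of related functions, matched by words in the descriptions, 10 had r over 0.9 with the mean profile, as did 104 of all 25253 other genes. A second RAM2-type gene (Rru04G055040, r = 0.97) had 0.0425, 0 and 0.047 CPM in CK, 2.58, 1.23 and 0.0574 CPM in HA1 and 0.899, 0.222 and 8.77 CPM in HA2, higher in HA2 replicate 3 than RAM2 itself. A second AMT2-5 (Rru06G015070, r = 0.94) had 0.106, 0.113 and 0 CPM in CK, 10.5, 2.47 and 0.373 CPM in HA1 and 3.94, 0 and 14.3 CPM in HA2. Another STR-type transporter (Rru03G038810, r = 0.94) had no count in CK and reached 2.63 CPM in HA2 replicate 3. A plasma membrane ATPase 1 (Rru07G024270, r = 0.98), a proton pump, had 0.318, 0 and 0 CPM in CK, 10.9, 3.73 and 0 CPM in HA1 and 6.53, 0.25 and 29.2 CPM in HA2. The lipid genes WRI1 (Rru02G074600, r = 0.93), a regulator of fatty acid synthesis, and a palmitoyl-acyl carrier protein thioesterase (Rru04G044850, r = 0.92), which releases fatty acids in the plastid, reached 3.58 and 2.53 CPM in HA2 replicate 3. RAM1 (Rru02G080350), the regulator upstream of RAM2 in Medicago, had 0.34, 0 and 0.188 CPM in CK, 0.799, 0.331 and 0 CPM in HA1 and 0.435, 0.166 and 3.7 CPM in HA2, and was less alike at r = 0.83. Not every copy followed: another RAM2-type gene (Rru06G015850, r = 0.50) had 1.63, 1.81 and 1.46 CPM in CK, 6.62, 5.21 and 3.73 CPM in HA1 and 2.55, 2.3 and 1.9 CPM in HA2, with no HA1 library near the CK range.

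**Figure D3:**
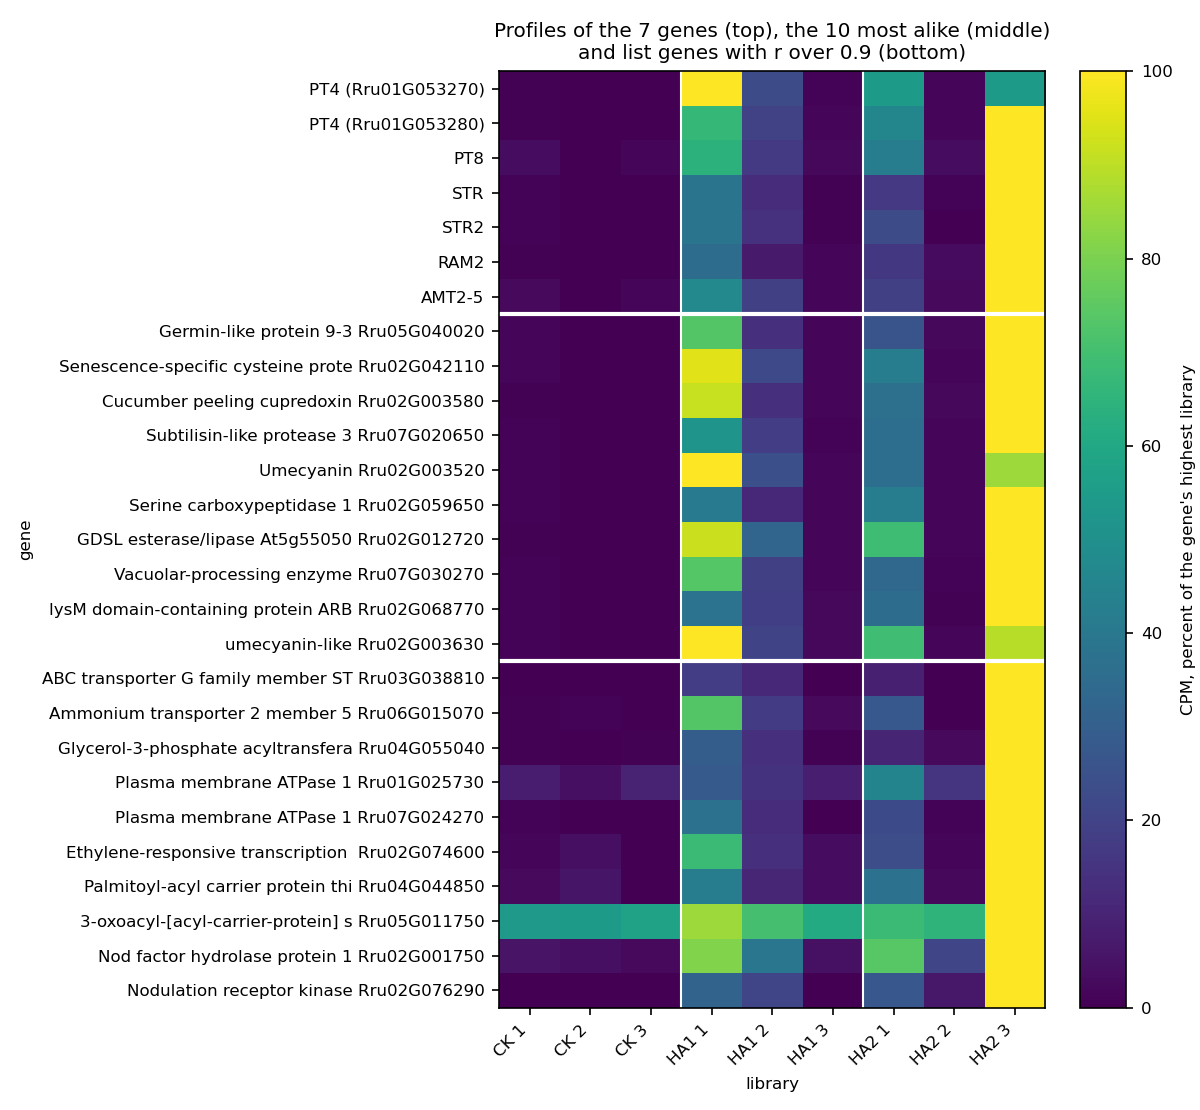
Level of each gene in the 9 libraries as a percentage of its highest library, for the 7 mycorrhiza-type genes, the 10 genes with the most similar profile and the 10 list genes with r over 0.9. Most rows are brightest in HA2 replicate 3 and bright in HA1 replicate 1, and dark in CK, HA1 replicate 3 and HA2 replicate 2, while 3-oxoacyl-[acyl-carrier-protein] synthase I (Rru05G011750) is well expressed in all 9.

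Genes of symbiosis signalling, of strigolactone and karrikin pathways and of phosphate starvation, matched by words in their descriptions, were tested singly against CK. Calls were then counted by list, and no list as a whole was tested. In HA1, 5355 of 25260 genes passed by edgeR's quasi-likelihood test at an adjusted p under 0.05, 21.2% of all, with the median gene at a log2 fold change of -0.02. Of 36 tested symbiosis signalling genes 9 rose and 2 fell, 30.6%, with a median of 0.08. VAPYRIN (Rru03G042370), needed for fungal entry into root cells in Petunia and Medicago, rose in HA1 by a log2 fold change of 2.86 ± 0.42 (SE, adjusted p = 0.00973). It had 2.97, 2.98 and 2.96 CPM in HA1, against 0.446, 0.369 and 0.4 CPM in CK, so that HA1 replicate 3 was as high as HA1 replicates 1 and 2. VAPYRIN-LIKE (Rru06G043440) rose by 1.78 ± 0.29 (adjusted p = 0.0103), and DELLA protein GAIP-B (Rru04G053600), a repressor of gibberellin responses, by 1.38 ± 0.27 (adjusted p = 0.0145). Of 15 strigolactone and karrikin genes, the hormone and signal pathways that promote the symbiosis, 3 rose and 4 fell, 46.7%, with a median of -0.26. The strigolactone synthesis enzyme CYP711A1 (Rru06G061460) rose by 1.23 ± 0.21 (adjusted p = 0.011). The strigolactone receptor D14 (Rru02G006100) fell by 1.73 ± 0.28 and SMAX1-LIKE 4 (Rru04G012370), of a family of repressors in karrikin and strigolactone signalling, fell by 2.66 ± 0.42 (adjusted p = 0.0103 each). Of 24 phosphate starvation genes 2 rose and 7 fell, 37.5%, with a median of -0.29. SPX domain-containing protein 4 (Rru02G073540), a phosphate sensor, fell by 1.63 ± 0.29 (adjusted p = 0.0118), the phosphate exporter PHO1 homolog 1 (Rru04G046980) by 2.07 ± 0.38 (adjusted p = 0.0129) and ALTERED PHOSPHATE STARVATION RESPONSE 1 (Rru05G013640) by 1.39 ± 0.2 (adjusted p = 0.00973). The number of calls depended on single libraries, as it did over all genes, where 0 passed without CK replicate 1. The 27 calls of the 3 lists became 0 without CK replicate 1, 8 without CK replicate 3, 13 and 6 without HA1 replicates 1 and 2, and 15 without HA1 replicate 3. Over all genes, the 5355 calls became 666 without CK replicate 3, and 1675, 823 and 2422 without HA1 replicates 1, 2 and 3. Without HA2 replicate 2 the 11 symbiosis signalling calls became 7, and those over all genes 4000. All 9 genes named here lost their call without CK replicate 1, 2 without CK replicate 3 and 3 without HA1 replicate 2, with adjusted p up to 0.0602. Their fold changes stayed close: over all settings VAPYRIN lay between 2.76 and 2.92, with a highest adjusted p of 0.0506, and D14 between -1.88 and -1.61, also 0.0506. Genes of the root marker families moved in the same comparison. Of 63 tested, the 10 markers above with CASP-like and Scarecrow-like proteins, which are not all limited to roots, 9 rose and 16 fell, 39.7%, with a median of -0.26, and their part in the lists' counts was not tested. CASP-like protein 2B1 (Rru05G000730) fell by 1.49 ± 0.16 (adjusted p = 0.00672). Of 33 tested green tissue markers 0 rose and 2 fell, 6.06%. The 25 calls of the root marker families became 0 without CK replicate 1, 2 without CK replicate 3, and 7, 3 and 9 without HA1 replicates 1, 2 and 3, and the 2 green ones 0 without any 1 of these libraries. The calls over all genes fell in the same settings, as given above.

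Transport and lipid genes outside the 7 moved in both directions in HA1. Of 7 ammonium transporters 3 rose and 1 fell, their median lying at 1.05 on the log2 scale. Ammonium transporter 3 member 1 rose in 2 copies, by 3.42 ± 0.56 (Rru03G031940, adjusted p = 0.0104) and 3.37 ± 0.58 (Rru03G031890, adjusted p = 0.0116), and AMT1-1 (Rru04G008850) by 1.05 ± 0.23 (adjusted p = 0.02). Rru03G031940 had 27.3, 11.6 and 17.5 CPM in HA1, against 1.63, 1.16 and 2.45 CPM in CK, with HA1 replicate 3 among the high libraries, unlike AMT2-5. Of 12 glycerol-3-phosphate acyltransferases 3 rose and 1 fell, with a median of 0.60. The RAM2-type gene that was unlike RAM2 rose by 1.66 ± 0.28 (Rru06G015850, adjusted p = 0.0109), GPAT6 (Rru03G013370), of cutin synthesis, by 0.82 ± 0.24 (adjusted p = 0.0418), and the chloroplast enzyme (Rru07G029790) fell by 1.15 ± 0.24 (adjusted p = 0.0164). Of 27 G family ABC transporters 1 rose and 4 fell, with a median of -0.18, and ABCG14 (Rru06G055390), a cytokinin transporter in Arabidopsis, fell by 2.47 ± 0.42 (adjusted p = 0.0111). ABCG21 (Rru04G046910) fell by 2.24 ± 0.46 (adjusted p = 0.016) and ABCG36 (Rru02G047110) by 0.87 ± 0.19 (adjusted p = 0.0191). Of 18 fatty acid synthesis genes 3 rose and 3 fell, with a median of 0.11: 3-oxoacyl-[acyl-carrier-protein] synthase II (Rru02G010940) fell by 0.79 ± 0.15 (adjusted p = 0.0134), the mitochondrial synthase (Rru02G065200) by 1.01 ± 0.22 (adjusted p = 0.0189), and a thioesterase (Rru02G005100) rose by 0.70 ± 0.15 (adjusted p = 0.0173). Of 15 SWEET sugar transporters 2 rose and 3 fell, with a median of -0.14: SWEET17 (Rru01G023810) fell by 1.92 ± 0.26 (adjusted p = 0.0093), SWEET14 (Rru06G044010) by 2.25 ± 0.43 (adjusted p = 0.0143), and another SWEET17 (Rru04G034450) rose by 1.75 ± 0.45 (adjusted p = 0.0279). Of 14 plasma membrane proton pumps 0 passed, with 2 at an unadjusted p under 0.05 and 1 by DESeq2, which called 29.9% of all genes. The shares that passed, beside 21.2% of all genes, were 57.1% for ammonium transporters, 18.5% for G family ABC transporters, 0% for proton pumps and 33.3% for each of the other lists. The 24 calls of these lists became 0 without CK replicate 1, 3 without CK replicate 3, 9, 6 and 9 without HA1 replicates 1, 2 and 3. Calls over all genes fell in the same settings, to 0, 666, 1675, 823 and 2422. Without HA2 replicate 3 the lists had 36 calls, where 7003 of all genes passed. All 15 genes named lost their call without CK replicate 1, 12 without CK replicate 3, 6, 9 and 6 without HA1 replicates 1, 2 and 3, 2 without CK replicate 2 and 1 without HA2 replicate 1, with adjusted p up to 0.129 and directions kept. GPAT6 also lost its call with a replicate block and with no filter beyond a count above 0.

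In HA2 against CK, 0 genes of the 10 lists passed by edgeR's quasi-likelihood test, where 1 of all 25260 genes did, 0.00396%. At an unadjusted p under 0.05 the test held 5233 of all genes, 20.7%, and DESeq2 called 2189, 9.3% of those with an adjusted p. Of the symbiosis signalling genes 10 of 36 had such an unadjusted p and DESeq2 called 5, with a median log2 fold change of 0.45 where all genes had -0.03. Of the strigolactone and karrikin genes 4 of 15 had such a p and DESeq2 called 3, with a median of -0.15. The counts were 7 of 15 and 6 by DESeq2 for SWEET transporters, 9 of 24 and 3 for phosphate starvation, 7 of 18 and 3 for fatty acid synthesis, 5 of 14 and 2 for proton pumps, 4 of 7 and 2 for ammonium transporters, 4 of 12 and 2 for acyltransferases and 6 of 27 and 2 for G family ABC transporters. Of the root marker families 14 of 63 had such a p and DESeq2 called 6. VAPYRIN had 2.67, 1.14 and 3.53 CPM in HA2, against 0.446, 0.369 and 0.4 CPM in CK, without overlap. By edgeR, the count for symbiosis signalling was 6 when CK replicate 2 was left out and 3 when HA2 replicate 3 was. For strigolactone and karrikin it was 2 in either case. Over all genes 1421 passed without CK replicate 2 and 1834 without HA2 replicate 3, against 1 with all libraries. The HA1 and HA2 comparisons share the 3 CK libraries, so they are not independent of each other.

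**Figure D4:**
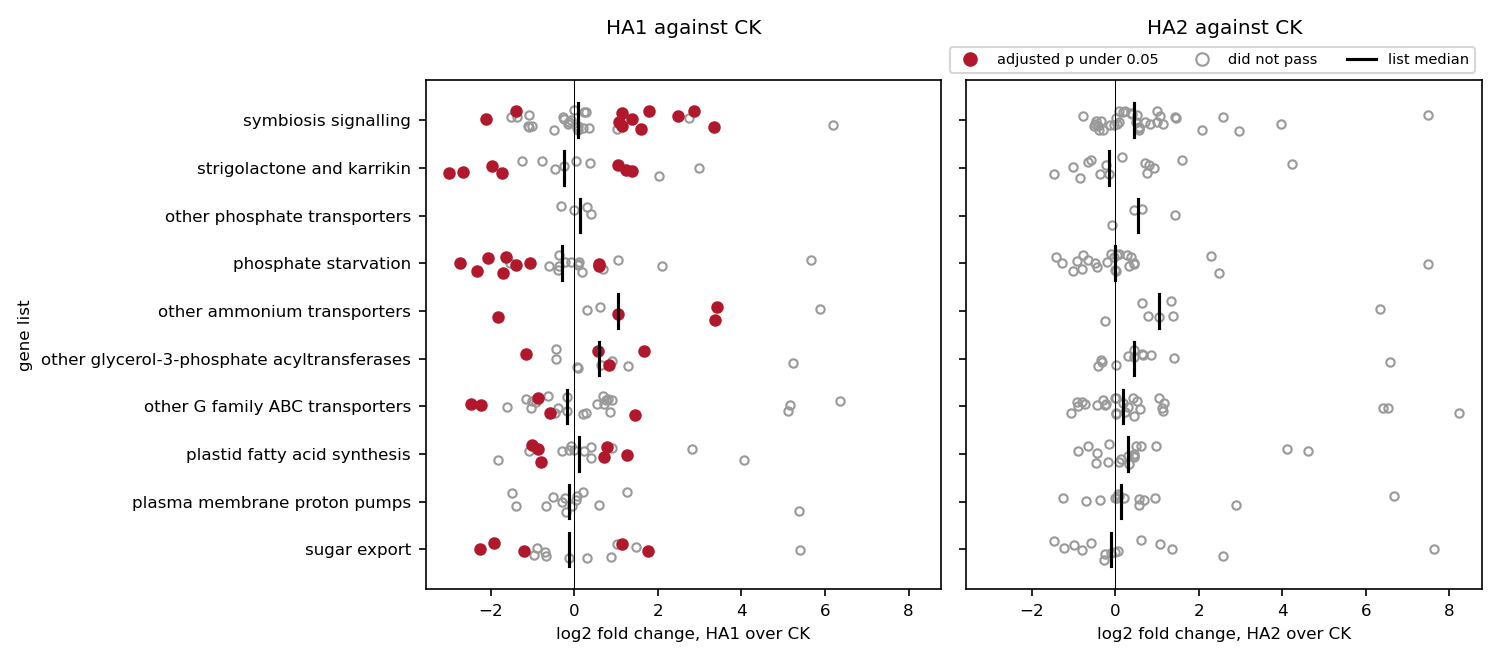
Log2 fold changes of the tested genes on 10 lists of related functions, the 7 mycorrhiza-type genes left out, in HA1 over CK (left) and HA2 over CK (right), with filled points for an adjusted p under 0.05 and bars for list medians. In HA1, 9 symbiosis signalling genes rose and 2 fell, 30.6% of those tested, where 21.2% of all genes passed. In HA2, 0 genes of any list passed, where 0.00396% of all genes did.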

How the data were processed

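Polyadenylated root RNA was sequenced on an Illumina NovaSeq as read pairs of 150 bases each, per the labels' protocols. Which aligner, counter, genome build and strand setting were used is not given in the sources used here. For each gene and library the deposited table holds the count, a whole number, and the FPKM, per the file headers. It also holds log2 fold changes and adjusted p-values of the authors' DESeq2 comparisons, per the file headers. Gene names are the Swiss-Prot descriptions in that table, given for 23524 of 47983 genes. No ID matched the RefSeq gene table (0 matches), so no position or sequence is printed.

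The labels give 3 libraries each for CK, HA1 and HA2. The test was edgeR 4.0.16 in R 4.3.3, with filterByExpr, TMM scaling and a quasi-likelihood fit of 1 mean for each group to all 9 libraries. It was two-sided, and p-values were adjusted over 25260 genes (Benjamini-Hochberg, threshold 0.05). FPKM entered no test. Pooled ratios to CK carry exact conditional 95% intervals, and shares exact binomial ones. Likeness is Pearson's r of log2 CPM (prior count 2) with the mean standardised profile of the 7 genes. The named genes were the 7, up to 3 passing genes with the lowest p of each list and comparison, and the 10 most alike genes. The 7 genes and the lists were chosen with earlier results of these data known. Alternatives were RLE scaling, DESeq2 1.42.0, 2 other filters, only the 6 libraries compared, a replicate block and leaving out each library. The procedure was tested on simulated data. Tables and figures used Python 3.11.15, pandas 2.3.3 and matplotlib 3.10.9.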

Additional observations from a re-analysis of the deposited data

How the results depend on the processing

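That 0 of the 7 genes differed between HA2 and HA1 held under all 15 alternatives, except that RAM2 was not tested with at least 1 CPM in 3 libraries. In every alternative but DESeq2, 0 of all genes passed as well. Those settings therefore say nothing particular about the 7. Leaving out 1 library moved the log2 fold changes across 0: from -0.74 (without HA1 replicate 3) to 1.63 (without HA1 replicate 1) for PT4 Rru01G053270, which was also 0.40 without HA2 replicate 2. From HA2 replicate 3 left out to HA1 replicate 1 left out, they ran from -0.29 to 2.25 for PT4 Rru01G053280, -0.30 to 2.34 for PT8, -0.99 to 2.57 for STR, -0.62 to 2.47 for STR2, -0.64 to 3.20 for RAM2 and -1.08 to 2.00 for AMT2-5. The cause was not tested. The lowest adjusted p of any setting was 0.499. For HA1 against CK, leaving out 1 library gave 0 to 7003 calls over all genes, 0 to 14 in symbiosis signalling and 0 to 10 in strigolactone and karrikin. For HA2 against CK it gave 0 to 1834, 0 to 6 and 0 to 2. The 6 came without CK replicate 2, where 1421 of all genes passed. DESeq2 called 7619 genes in HA1 and 2189 in HA2 against CK, where 5 symbiosis signalling and 3 strigolactone and karrikin genes were among them, and 947 in HA2 against HA1. The single HA2 call over all genes became 0 with at least 1 CPM in 3 libraries and 0 with only the 6 libraries. Of the named list genes, 350 results kept their call and 85 lost it, and no direction changed. With counts this low in CK, counting error alone leaves the ratio of RAM2 in HA1 between 16.3 and 504, and without CK replicate 1 only lower bounds remain for 5 genes.

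Replicate numbers did not pair the libraries: 3 of 9 same-number pairs correlated over 0.1, and for 3 of 9 libraries the best correlated one had the same number. With the replicate number as a block, 5206 genes passed in HA1 against CK, 0 in HA2 against CK and 0 in HA2 against HA1, and the log2 fold change of AMT2-5 in HA2 against HA1 was -0.08. The call of GPAT6 (Rru03G013370) in HA1 was lost.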
